A study of Saccharomyces cerevisiae with 32 samples.

Results

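The effect of deleting *STM1* on ribosome occupancy (RO) was examined in 4 *stm1Δ* and 4 *wt* cultures of budding yeast, 16 of the 32 libraries of the series. Each culture gave 1 RNA-Seq library, which measures mRNA abundance, and 1 Ribo-Seq library, which counts the mRNA fragments that ribosomes protect from nuclease. RO was taken as the log2 ratio of Ribo-Seq to RNA-Seq CPM of the same culture, where CPM here is the reads of a gene divided by the total of its library times a trimmed-mean (TMM) factor that sets most genes level between libraries, so a culture, not a library, was the unit. The *stm1Δ* genotype lacks *STM1* alone among the genes compared, and *wt* is the parental haploid MATα strain BY4742, in which *his3*, *leu2*, *lys2* and *ura3* are mutant in all groups. The other 8 cultures, 4 of *eif2aΔ* (deletion of *YGR054W*) and 4 of *tma46Δ*, entered the fits to estimate the spread. All cells were in exponential growth, and the labels name YPD or SD as the medium for every sample without saying which, while the methods name YPD. The labels place a short cycloheximide treatment before harvest in every group, whereas the methods name the drug in buffers. Each strain is a single deletion strain, and no source says whether the replicates came from separate colonies, so p-values measure the spread between these cultures. Replicate 1 of *stm1Δ* was made in batch 6 and replicates 2 to 4 in batch 7, while *wt* replicates 1 to 4 were made in batches 1 to 4. Strain and batch therefore cannot be told apart in any *stm1Δ* against *wt* difference given here.

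Stm1 is an abundant protein that binds the 80S ribosome and runs through the mRNA channel of the small subunit. It is best known for keeping idle ribosomes intact when nutrients run out or TOR complex 1 is inhibited, and it has also been linked to the elongation factor eEF3 and to mRNA decapping with Dhh1. Its relative in mammals is SERBP1. RO is a relative measure: the libraries are scaled by their totals and TMM factors, so a change shared by all mRNAs would not be seen.

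*STM1* itself checked the labels. The 4 *stm1Δ* cultures held 0, 2, 1 and 1 RNA-Seq reads of *STM1*, against 10653 to 16316 in *wt*. They held 2, 23, 22 and 9 footprint reads, against 9101 to 11427 in *wt*. A ratio of so few reads has no meaning, and *STM1* was left out of every count below. RNA-Seq totals spanned 4634941 to 5186167 reads for *stm1Δ* and 4215500 to 6334413 for *wt*, and Ribo-Seq totals 1457024 to 3286850 for *stm1Δ* and 3079398 to 4122370 for *wt*. *stm1Δ* replicate 4 had the shallowest Ribo-Seq library. *LEU2*, *URA3* and *LYS2* had at most 3 reads in any library of both strains. *HIS3*, also named as mutant, was read in every library. Its RNA-Seq counts ranged from 336 to 397 reads (*stm1Δ*) and from 306 to 534 reads (*wt*). Its footprint counts ranged from 138 to 315 reads (*stm1Δ*) and from 220 to 323 reads (*wt*). Counts per gene cannot tell a mutant *HIS3* from an intact copy, so the *his3* label was not tested. Of 6 α-cell genes, 4 passed the filter, while *HMLALPHA1* and *HMLALPHA2* had 0 reads in every library of both strains. *MF(ALPHA)1* and *STE3* mRNA was at 86.8 CPM or more in each culture of both strains. *MF(ALPHA)2* mRNA was at 1.94 to 36.2 CPM in *stm1Δ*, against 20 to 58.8 CPM in *wt*. *SAG1* was read in both strains. Its mRNA spanned 41.5 to 139 CPM across *stm1Δ* and 56.8 to 131 CPM across *wt* cultures, and its footprints 10.8 to 166 CPM against 56.8 to 129 CPM. Of 7 a-cell genes, none passed the filter. *MFA1*, *MFA2*, *AGA2* and *ASG7* had at most 6 reads in any library of either strain. *STE6*, *STE2* and *BAR1* were read as mRNA in both strains, with *STE6* highest (16.4 to 23.2 CPM in *stm1Δ*, against 15.4 to 20.2 CPM in *wt*), and had at most 7 footprint reads in any library.

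RO differed between *stm1Δ* and *wt* for few genes. Among 4616 coding genes that passed the expression filter, 2 had higher RO in *stm1Δ* (0.0433%) and 7 had lower RO (0.152%) at a false discovery rate (FDR) under 0.05 by edgeR's quasi-likelihood interaction test with Benjamini-Hochberg adjustment over all genes tested. The higher ones were *SBP1* and *RPL9B*, and the lower ones were *VPS13*, *PDR12*, *SER3*, *RET1*, *BLM10*, *FAS1* and *ACC1*. For each of the 9, the 4 *stm1Δ* ratios did not overlap the 4 *wt* ratios, as was so for 255 genes lying above (5.52%) and 127 lying below (2.75%). At an unadjusted p under 0.05 the counts were 408 higher (8.84%) and 255 lower (5.52%). The fitted log2 change had a median of 0.02 and an SD of 0.20 across genes, and its median standard error was 0.14. Changes in either component were called more often. RNA-Seq gave 154 genes higher (3.34%) and 292 lower (6.33%), and Ribo-Seq gave 76 higher (1.65%) and 141 lower (3.05%). These counts hung on single cultures. RNA-Seq gave 5 higher and 14 lower without *stm1Δ* replicate 4 and 299 higher and 547 lower without *stm1Δ* replicate 2, and Ribo-Seq gave 25 higher without *stm1Δ* replicate 4, 144 higher and 201 lower without *stm1Δ* replicate 1, and 66 lower without *wt* replicate 1. With batch as a term, edgeR gave 0 genes higher and 2 lower for mRNA and 12 higher and 6 lower for footprints. The small nucleolar RNA snR31 also passed for RO, but it codes for no protein and its groups overlapped.

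The start codon contexts of the 9 genes are shown because they are the letters around the codon where ribosomes begin on these mRNAs. Each line holds the 12 bases before the coding start, the start codon in capitals and 12 bases after it, from the RefSeq sequence of assembly R64, written along the coding strand.
SBP1 (chrVIII:34063-34089, minus strand): acgaagaaaaatATGtctgctgaaatt
RPL9B (chrXIV:499669-499695, plus strand): tagtcactaaagATGaagtacattcaa
VPS13 (chrXII:63631-63657, minus strand): aagaacagttaaATGttagagtcttta
PDR12 (chrXVI:450363-450389, minus strand): attaataaaaaaATGtcttcgactgac
SER3 (chrV:322674-322700, plus strand): aaatcgacagcaATGacaagcattgac
RET1 (chrXV:733443-733469, minus strand): gcttgttgaaaaATGgttgctgcgaca
BLM10 (chrVI:123467-123493, plus strand): ttgttaccgccaATGaccgctaacaat
FAS1 (chrXI:100659-100685, plus strand): tattcgctcattATGgacgcttactcc
ACC1 (chrXIV:661360-661386, minus strand): caagtttctaccATGagcgaagaaagc
The number of A bases in the 12 before the start was 8 in *SBP1* and 5 in *RPL9B*, and from 2 (*BLM10*, *FAS1*) to 9 (*PDR12*) in the genes with lower RO, with a median of 4 there and 5 over all coding genes. None of the 9 coding sequences holds an intron, and only 4.9% of all coding genes tested do.

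*SBP1* (YHL034C) encodes an RGG-motif protein that binds eIF4G and is found in P-bodies. Its log2 RO was 0.79, 0.81, 0.62 and 0.61 in the 4 *stm1Δ* cultures, against -0.08, -0.12, 0.04 and -0.06 in *wt*. All 4 *stm1Δ* values lay above all 4 *wt* values, with means of 0.70 ± 0.11 and -0.05 ± 0.07 (SD, n = 4 each). The fitted RO change was 0.76 (standard error 0.087, FDR 9.95e-06 by edgeR). The difference lay on the mRNA side. *SBP1* mRNA was at 434.8, 468.5, 415.8 and 409 CPM in *stm1Δ* and at 656.8, 656.7, 641.1 and 646.4 CPM in *wt*, a change of -0.59 in RNA-Seq (FDR 1.9e-05 by edgeR). Footprints spanned 623.9 to 818.8 CPM in *stm1Δ*, against 605.8 to 657.6 CPM in *wt*, a change of 0.18 that did not pass (FDR 0.229 by edgeR). In the other strains *SBP1* RO was 0.45 to 0.67 in *eif2aΔ* and 0.24 to 0.65 in *tma46Δ*, so both sets lay above *wt*, and *stm1Δ* overlapped each of them.

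*RPL9B* (YNL067W), coding for the large subunit protein uL6, had a log2 RO of 0.25, 0.23, 0.38 and 0.21 in *stm1Δ* against -0.14, -0.18, -0.01 and -0.08 in *wt*. The groups did not overlap, and the fitted change was 0.37 (standard error 0.079, FDR 0.0425 by edgeR). Here the mRNA change was -0.00 and the footprint change 0.37 (FDR 0.00812 by edgeR). Its near-identical paralogue *RPL9A* had an RO change of 0.22 (FDR 0.175 by edgeR), with its mRNA lower by edgeR (-0.41, FDR 0.0239). Reads that map to both copies were not counted, so the split between them is uncertain.

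*VPS13* (YLL040C), whose product carries lipids between membranes at contact sites, had the lowest FDR among genes with reduced RO. Its log2 RO was -0.23, -0.21, -0.06 and -0.17 in *stm1Δ* and 0.57, 0.66, 0.57 and 0.57 in *wt*. The fitted change was -0.76 (standard error 0.093, FDR 2.15e-05 by edgeR). Both assays moved, in opposite directions. The mRNA was at 235 to 269.9 CPM in *stm1Δ* against 186 to 196.9 CPM in *wt* (change 0.38, FDR 0.0168 by edgeR), and footprints were at 202.5 to 230.9 CPM against 276.7 to 296.1 CPM (change -0.39, FDR 0.00348). The *eif2aΔ* cultures, at 0.21 to 0.54, also lay below the *wt* range, while *tma46Δ* spanned 0.35 to 0.71. Neither strain reached the *stm1Δ* values.

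*PDR12* (YPL058C) encodes a plasma membrane transporter that exports weak organic acids. Its log2 RO was -2.24, -2.61, -2.53 and -3.89 in *stm1Δ* and -1.53, -1.13, -1.40 and -1.13 in *wt*, the largest fitted change among the 9 genes at -1.30 (standard error 0.23, FDR 0.0077 by edgeR). Its mRNA ranges overlapped (55.3 to 83 CPM in *stm1Δ*, 70.7 to 83 CPM in *wt*). Footprints were at 3.39 to 17.4 CPM in *stm1Δ* against 26.7 to 37.3 CPM in *wt*. The lowest *stm1Δ* value came from replicate 4 and rested on 5 reads. Without that culture the RO change was -1.17 (FDR 0.0202 by edgeR). The other strains ranged widely as well, from -2.58 to -1.42 in *eif2aΔ* and from -2.26 to -1.48 in *tma46Δ*, so both reached the *stm1Δ* range.

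*SER3* (YER081W), a 3-phosphoglycerate dehydrogenase of serine synthesis, had a log2 RO of -2.75, -3.03, -3.05 and -3.21 in *stm1Δ* against -2.04, -2.07, -2.19 and -2.27 in *wt* (change -0.85, standard error 0.18, FDR 0.038 by edgeR). It rested on 14 to 36 footprint reads in *stm1Δ* and 41 to 64 in *wt*. Its paralogue *SER33* had an RO change of 0.08 (FDR 0.745 by edgeR), with overlapping groups. The *eif2aΔ* cultures, at -2.76 to -2.53, also lay below *wt* for *SER3*. *RET1* (YOR207C), a large subunit of RNA polymerase III, had -1.15, -1.09, -1.10 and -1.10 in *stm1Δ* and -0.72, -0.43, -0.78 and -0.52 in *wt* (change -0.50, standard error 0.10, FDR 0.038 by edgeR). *RET1* mRNA had a change of 0.01, while footprints were at 89.2 to 102.7 CPM in *stm1Δ* against 118.5 to 141.6 CPM in *wt* (FDR 0.00326 by edgeR). The *RET1* values of *eif2aΔ* and *tma46Δ* lay between -0.77 and -0.37, above every *stm1Δ* culture.

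*BLM10* (YFL007W), coding for an activator of the proteasome core, had a log2 RO of -1.32, -1.52, -1.23 and -1.24 in *stm1Δ* against -0.82, -0.73, -1.01 and -0.85 in *wt* (change -0.48, standard error 0.10, FDR 0.0425 by edgeR). The remaining genes belong to fatty acid synthesis. *FAS1* (YKL182W), the β subunit of fatty acid synthase, had 0.57, 0.38, 0.71 and 0.77 in *stm1Δ* against 1.05, 0.96, 0.90 and 1.07 in *wt* (change -0.39, standard error 0.085, FDR 0.0492 by edgeR). *ACC1* (YNR016C), the acetyl-CoA carboxylase that makes malonyl-CoA, had 0.34, 0.39, 0.52 and 0.55 in *stm1Δ* against 0.77, 0.74, 0.79 and 0.85 in *wt* (change -0.34, standard error 0.073, FDR 0.0425 by edgeR). For neither of these did the mRNA or the footprint change pass on its own. *FAS2*, the α subunit of fatty acid synthase, had a change of -0.21 (FDR 0.337 by edgeR). In *eif2aΔ*, *ACC1* RO was 0.48 to 0.59 and *FAS1* RO 0.58 to 0.84, below the *wt* range as in *stm1Δ*.

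**Figure D1:**
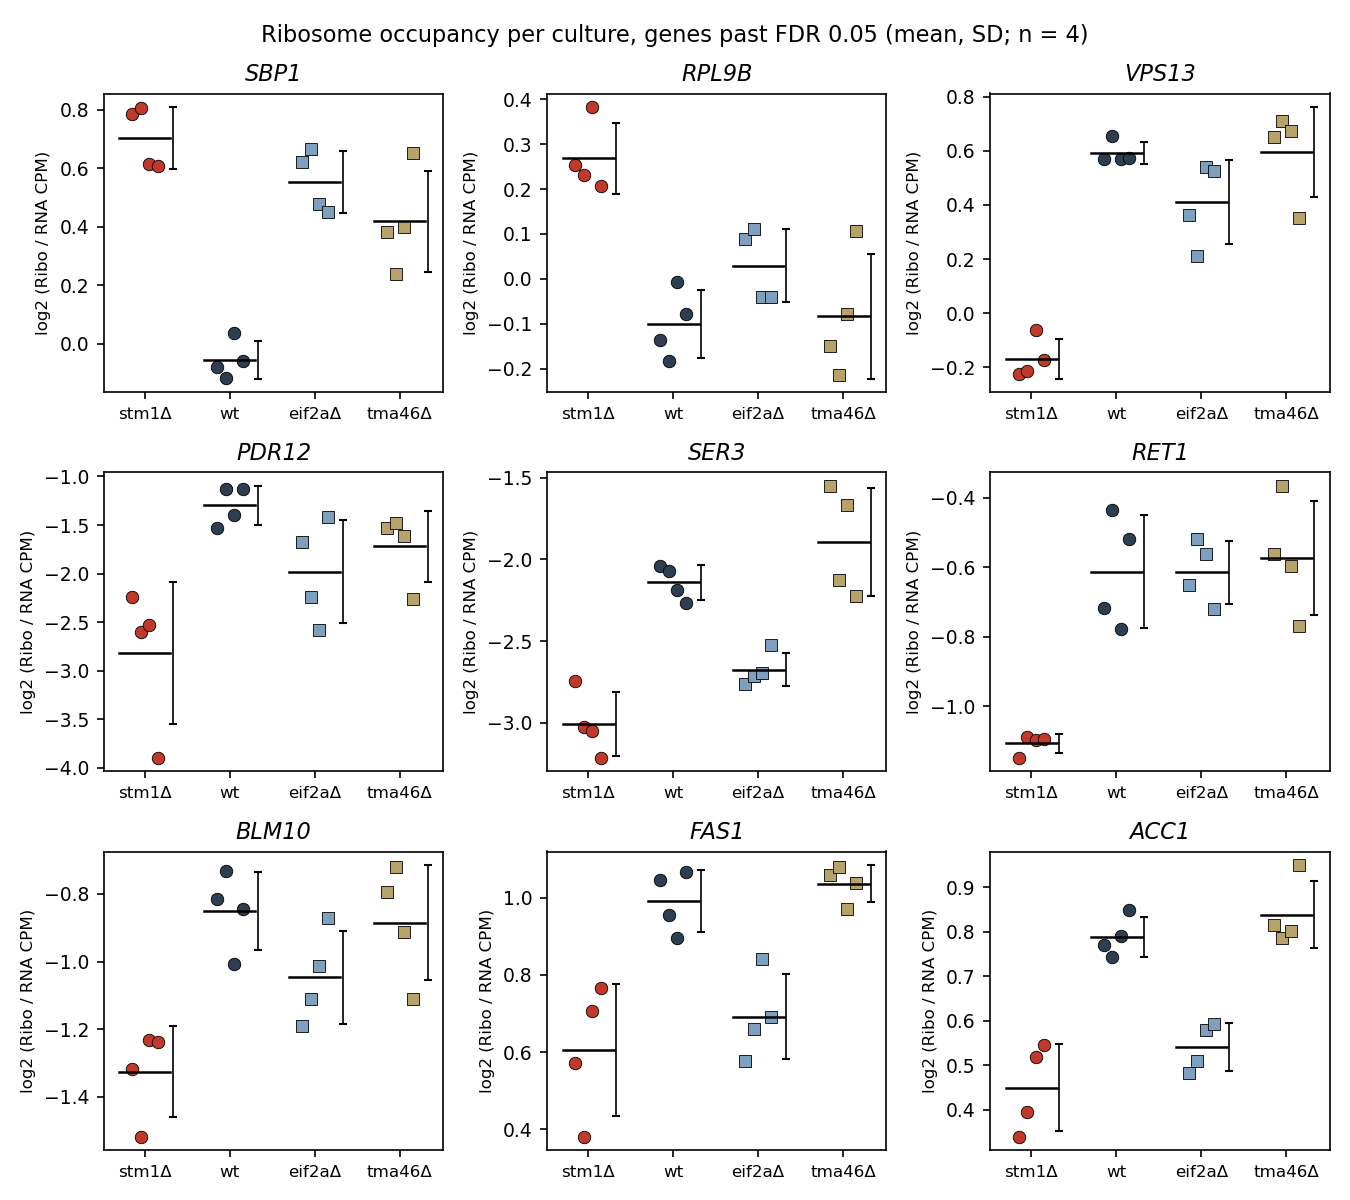
Log2 ratio of Ribo-Seq to RNA-Seq CPM (vertical axis, a separate scale in each panel) for the 9 coding genes with RO past FDR 0.05, 1 point per culture, with the mean and SD of 4 cultures per strain. In every panel the *stm1Δ* points do not overlap the *wt* points. *SBP1* is also above *wt* in all *eif2aΔ* and *tma46Δ* cultures, and *VPS13*, *SER3*, *FAS1* and *ACC1* are also below *wt* in all *eif2aΔ* cultures.

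*SBP1* and *VPS13* passed under the most settings. Both passed when any 1 culture of *stm1Δ* or *wt* was left out, at 0.73 to 0.79 and -0.81 to -0.74, and with *stm1Δ* of batch 7 alone (0.73 and -0.75). The single *stm1Δ* culture of batch 6 gave 0.84 and -0.82, a fit in which the spread comes only from the other groups and that culture is assumed to vary like them. *PDR12* also passed in each omission of 1 culture (-1.49 to -1.17). *RPL9B* passed in none of the 8 omissions, and *SER3*, *RET1*, *BLM10*, *FAS1* and *ACC1* each lost the call in 7 of them. With batch as a term of the model, in which the comparison runs through the single pair of *stm1Δ* and *eif2aΔ* cultures of batch 6, no gene passed by edgeR, while *SBP1* stood at 0.89 (FDR 0.191) and *VPS13* at -0.91 (FDR 0.205), and 190 genes higher and 197 lower had an unadjusted p under 0.05. DESeq2 called 9 genes higher and 11 lower, all 9 genes among them. After ComBat-seq with strain as group, edgeR called 1386 higher and 997 lower of 4616 coding genes, again with all 9. So wide a call says little about these 9 genes. *stm1Δ* and *wt* share no batch, and the fit takes no account of the adjustment.

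Genes just outside the threshold are given as values. *TIF3*, coding for initiation factor eIF4B, had an RO change of 0.40 (FDR 0.0504 by edgeR), with its mRNA lower (RNA-Seq change -0.39, FDR 0.0111). Its log2 RO was 0.69, 0.65, 0.65 and 0.60 in *stm1Δ* and 0.25, 0.06, 0.32 and 0.36 in *wt*. *CPR6*, a cyclophilin that binds Hsp90, had a change of 0.34 (FDR 0.0525). *DOP1*, involved in Golgi and endosome organisation, and *CDC39*, the scaffold of the Ccr4-Not complex, had changes of -0.55 and -0.49 (FDR 0.0722 each).

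The genes with lower RO were long. Coding lengths ran from 1410 nt (*SER3*) to 9435 nt (*VPS13*) with a median of 6156 nt, against a median of 1290 nt over the 4616 coding genes, of which only 4 were longer than *VPS13* and 18 longer than *ACC1*. *SBP1* (885 nt) and *RPL9B* (576 nt) lay below that median. The 408 genes higher at an unadjusted p had a median length of 597 nt and the 255 lower ones 2691 nt. Length was looked at after these values were seen. Across all coding genes sorted by length into 5 groups of like size, the median RO change was 0.18 in the shortest genes (78 to 672 nt), 0.09, 0.02 and -0.04 in the next groups, and -0.12 in the longest (2217 to 14733 nt). The change was positive for 85% of the shortest genes and for 22.5% of the longest.

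The slope of log2 RO on log2 coding length was -0.256, -0.211, -0.220 and -0.194 in the *stm1Δ* cultures against -0.129, -0.081, -0.142 and -0.120 in *wt*. The groups did not overlap, and the difference was -0.102, with p = 0.0286 in a two-sided exact permutation test over 70 regroupings of the 8 cultures, the smallest p this design allows, and 0.0858 adjusted over the slopes of RO, RNA-Seq and Ribo-Seq. The RNA-Seq slope differed by 0.06 (exact permutation p = 0.114) and the Ribo-Seq slope by -0.04 (exact permutation p = 0.171). The RO slopes were apart within each of 5 groups of mRNA level and without the ribosomal protein genes (difference -0.102, exact permutation p = 0.0286). The steeper slope was not limited to *stm1Δ*: *eif2aΔ* replicates 1 and 2 (-0.215 and -0.206) and *tma46Δ* replicate 4 (-0.212) lay within the *stm1Δ* range, while the other *eif2aΔ* and *tma46Δ* cultures lay between -0.099 and -0.043. In batch 6, the *stm1Δ* culture had -0.256 and the *eif2aΔ* culture -0.091. Whether library preparation sets these slopes was not tested.

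**Figure D2:**
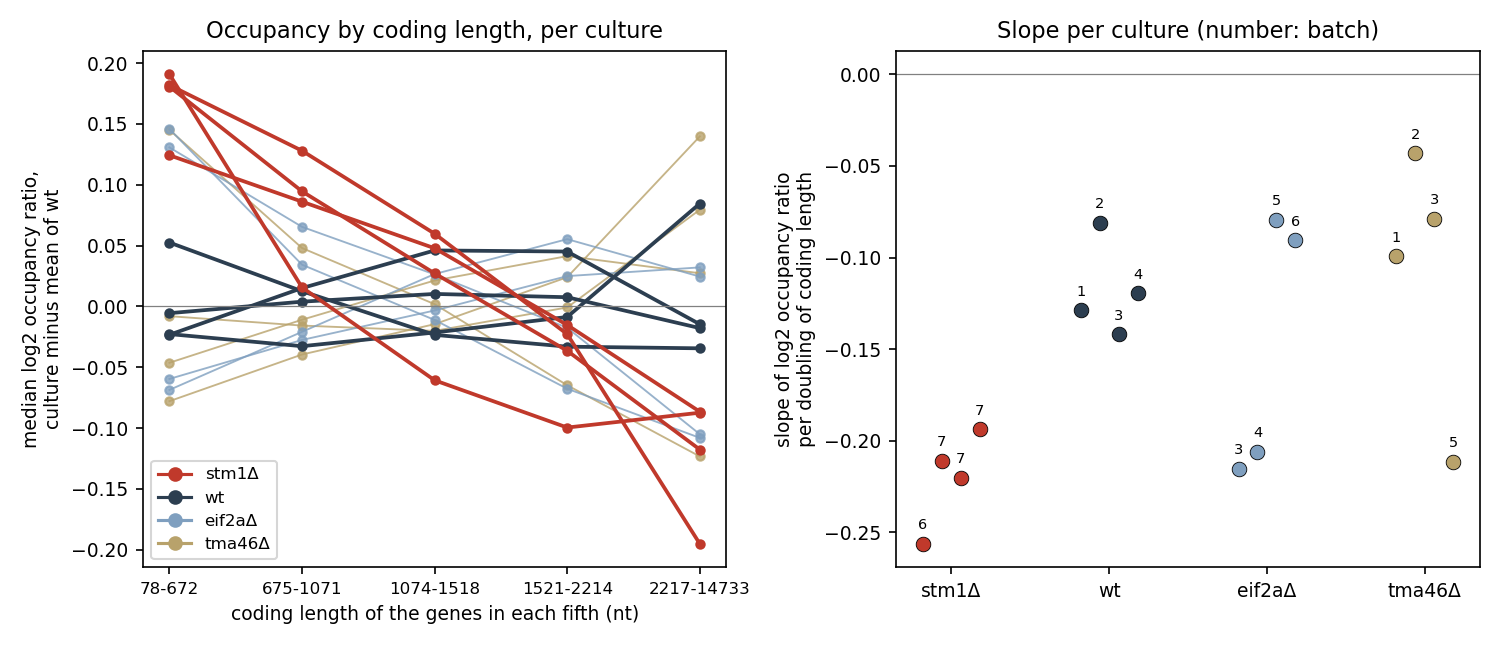
Left, the median over genes of a culture's log2 RO minus the mean of the 4 *wt* cultures (vertical axis) in 5 groups of coding length in nt (horizontal axis), 1 line per culture. Right, the slope of log2 RO per doubling of coding length, 1 point per culture, numbered by batch: the 4 *stm1Δ* slopes (-0.256 to -0.194) lie below the 4 *wt* slopes (-0.142 to -0.081), and 3 cultures of the other strains reach the *stm1Δ* range.

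A smooth trend with log2 coding length, a lowess curve for each library, was also removed through offsets in the fit. *SBP1* was then the only coding gene past the threshold, at 0.70 (standard error 0.075, FDR 4.97e-06 by edgeR). *VPS13* then stood at -0.41 (FDR 0.0651), *PDR12* at -1.08 and *SER3* at -0.84 (FDR 0.0568 each), and *RET1* at -0.35. *RPL9B* stood at 0.24 (FDR 0.227), *BLM10* at -0.20, *FAS1* at -0.12 and *ACC1* at -0.06. The genes at an unadjusted p under 0.05 were then 243 higher (5.26%) and 161 lower (3.49%).

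Gene groups were described by their median RO change beside the 0.02 of all coding genes. Over all 4616 coding genes the change was positive for 2523. Of 27 lists of functions and complexes, 26 had tested members, and 3 members passed the FDR threshold in all: *SBP1* among mRNA decay factors, *RPL9B* among ribosomal proteins and *SER3* in amino acid biosynthesis. Cytosolic ribosomal proteins, which build the ribosomes that Stm1 binds, had positive changes nearly throughout. All 56 small subunit genes were positive, with a median of 0.21, and 39 had an unadjusted p under 0.05, against 8.84% of all coding genes. Of 82 large subunit genes, 79 were positive, with a median of 0.24, 56 at an unadjusted p under 0.05 and 1 past the FDR. Per culture, the median of the small subunit genes relative to the mean of *wt* was 0.16 to 0.26 in *stm1Δ* and -0.03 to 0.08 in *wt*. For the large subunit genes it was 0.19 to 0.28 in *stm1Δ* and -0.06 to 0.10 in *wt*. The mRNA medians were -0.23 and -0.25 and the footprint medians -0.00 and -0.01, so these positive values lay on the mRNA side. *RPS24A* had 0.38 and *RPL35B* 0.61 (FDR 0.0722 each by edgeR), and each has a paralogue that shares reads. The ribosomal protein genes are short, with median lengths of 432 and 459 nt, and with the length trend removed their medians were 0.05 and 0.09. Positive changes were then seen in 44 of 56 small subunit and 63 of 82 large subunit genes. At an unadjusted p under 0.05, 6 small subunit genes were then higher and 1 lower, and 12 large subunit genes higher and 3 lower. Ribosomal protein genes with an intron (89) and without (49) had medians of 0.23 and 0.20, and other genes with an intron (137) had 0.10.

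Other short-gene groups stood on the same side. The 10 histone genes were all positive, with a median of 0.27, or 0.11 with the length trend removed, and 8 had an unadjusted p under 0.05. *HTZ1*, the H2A.Z variant, had the largest change of the list at 0.34 (FDR 0.202 by edgeR). Mitochondrial ribosomal proteins had a median of 0.13 (55 of 67 positive), or 0.03 with the trend removed. Nuclear genes of the respiratory chain and ATP synthase had 0.12, which became -0.05. With the trend removed, positive changes remained in 8 of 10 histone, 36 of 67 mitochondrial ribosomal and 14 of 33 respiratory genes.

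The 19 stress and heat shock genes (median length 1920 nt) had a median of 0.17, with 8 higher and 1 lower at an unadjusted p under 0.05, and 0.14 with the trend removed. *HSP60*, the mitochondrial chaperonin, had a change of 0.32 (FDR 0.166 by edgeR). The 20 chaperones that act on nascent chains were all positive at a median of 0.16, against 0.09 with the trend removed, led by *EGD2*, the α subunit of the nascent polypeptide-associated complex, at 0.31 (FDR 0.129). Proteasome genes had a median of 0.12 (31 of 33 positive), initiation factors 0.09 (27 of 32 positive, led by *TIF3*) and glycolytic genes 0.11. With the trend removed these 3 medians were 0.09, 0.10 and 0.11. Ribosome biogenesis factors had a median of 0.06, or 0.08 with the trend removed. Cytosolic aminoacyl-tRNA synthetases had a median of 0.05, or 0.12 with the trend removed. Elongation and termination factors had 0.07, led by *TEF2*, 1 of a pair of eEF1A genes with the same product whose reads cannot be split with certainty, at 0.38 (FDR 0.163). *YEF3*, which encodes eEF3, had a change of 0.18 (FDR 0.372) with overlapping groups.

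Lists tied to the known roles of Stm1 had medians near that of all coding genes. The 28 ribosome dormancy, rescue and collision factors other than *STM1* had a median RO change of 0.06, with 3 higher and 3 lower at an unadjusted p under 0.05. *DOM34*, which splits stalled ribosomes, had the largest change at 0.36 (FDR 0.203 by edgeR). The 20 TOR complex 1 genes had a median of -0.02, with none higher and 4 lower at an unadjusted p under 0.05, against 5.52% lower over all coding genes, and 0 lower with the length trend removed. The largest change was that of *KOG1*, a subunit of the complex, at -0.40 (FDR 0.198). The 33 decay factors had a median of 0.04, and *DHH1*, the decapping activator, had a change of -0.24 (FDR 0.467), with overlapping groups and a footprint change of -0.25 (FDR 0.027 by edgeR). The 28 iron uptake genes had mRNA and footprint medians of 0.40 and 0.36 and an RO median of -0.04, so the mRNA and footprint medians lay close together. Amino acid biosynthesis had mRNA and footprint medians of -0.26 each and an RO median of 0.02. Its member of largest change, *GLT1*, the glutamate synthase, stood at -0.98 without passing (FDR 0.121).

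**Figure D3:**
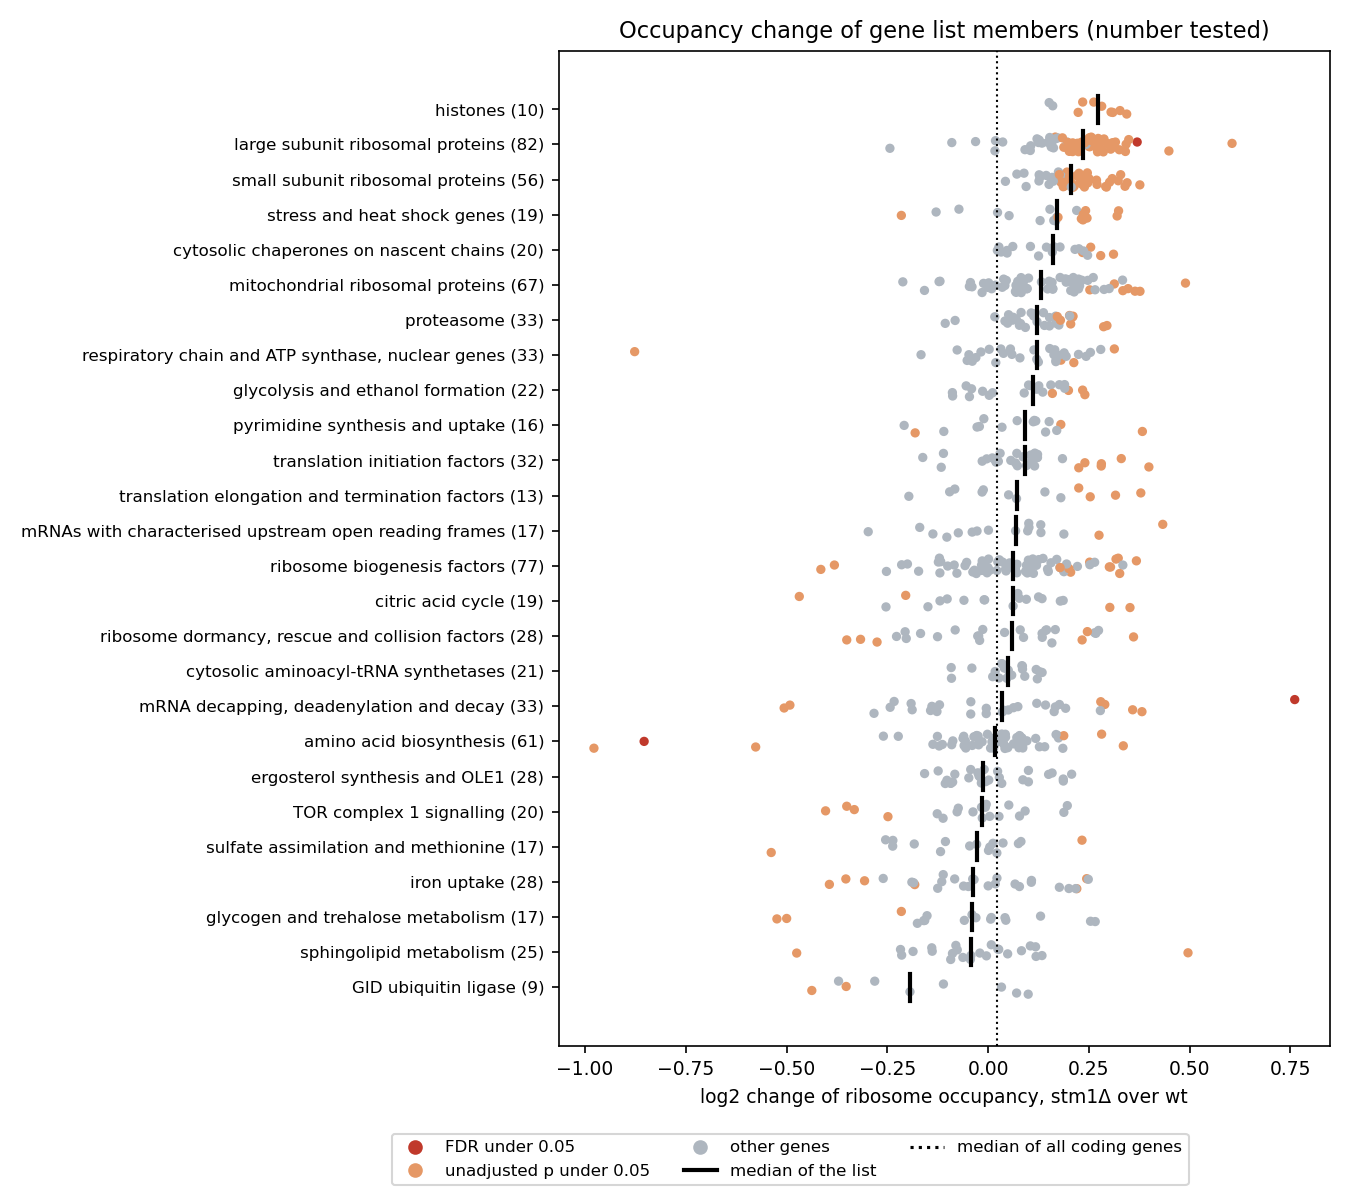
Fitted log2 RO change, *stm1Δ* over *wt* (horizontal axis), of each tested member of 26 gene lists, with the number of members in brackets, the list median as a bar and the median of all coding genes as a dotted line. Histones and both sets of cytosolic ribosomal proteins have the highest medians (0.27, 0.24 and 0.21), and 3 members are past FDR 0.05. The GID ubiquitin ligase genes have the lowest median, -0.19, or -0.12 with the length trend removed.

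Among genes picked by their RO change, the mRNA mostly ran against the ratio and the footprints mostly ran with it. Of the 408 genes higher at an unadjusted p, mRNA was lower in 343 and footprints were higher in 301, and the mRNA change was the larger part in 240. Of the 255 lower ones, mRNA was higher in 216, footprints were lower in 233 and mRNA was the larger part in 118. Because mRNA is the denominator of the ratio, its errors enter these counts with the opposite sign. Both sets were picked on that ratio, so opposite mRNA and like footprints follow in part from the choice. The same share over all coding genes was not computed.

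The genes beside *STM1* were read one by one. *GID11*, which lies next to *STM1* on the opposite strand of chromosome XII (437631 to 439823) and codes for a substrate receptor of the GID ubiquitin ligase, fell below the filter. Its log2 RO was -3.64, -4.24, -4.54 and -3.85 in *stm1Δ* and -0.48, -0.80, -0.66 and -0.96 in *wt*, a difference of -3.34. This is far larger than the spread of either group, with p = 0.0286 in a two-sided exact permutation test, the smallest the design allows, and 0.0858 adjusted over 3 genes. The mRNA was at 60.7 to 77.2 CPM in *stm1Δ* against 8.15 to 16.8 CPM in *wt*, while footprints were at 3.06 to 5.19 CPM against 5.73 to 9.56 CPM. The extra *GID11* mRNA reads in *stm1Δ* were thus not matched by footprints, which rested on 7 to 17 reads in *stm1Δ* and 17 to 39 in *wt*. *PCD1*, a nucleotide diphosphatase on the other side, differed by -0.55 (exact permutation p = 0.143), and *YLR152C* by -0.04 (exact permutation p = 0.914). *PEP3*, a vacuolar sorting gene beyond *GID11*, passed the filter and had a change of -0.36 (FDR 0.315 by edgeR).

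**Figure D4:**
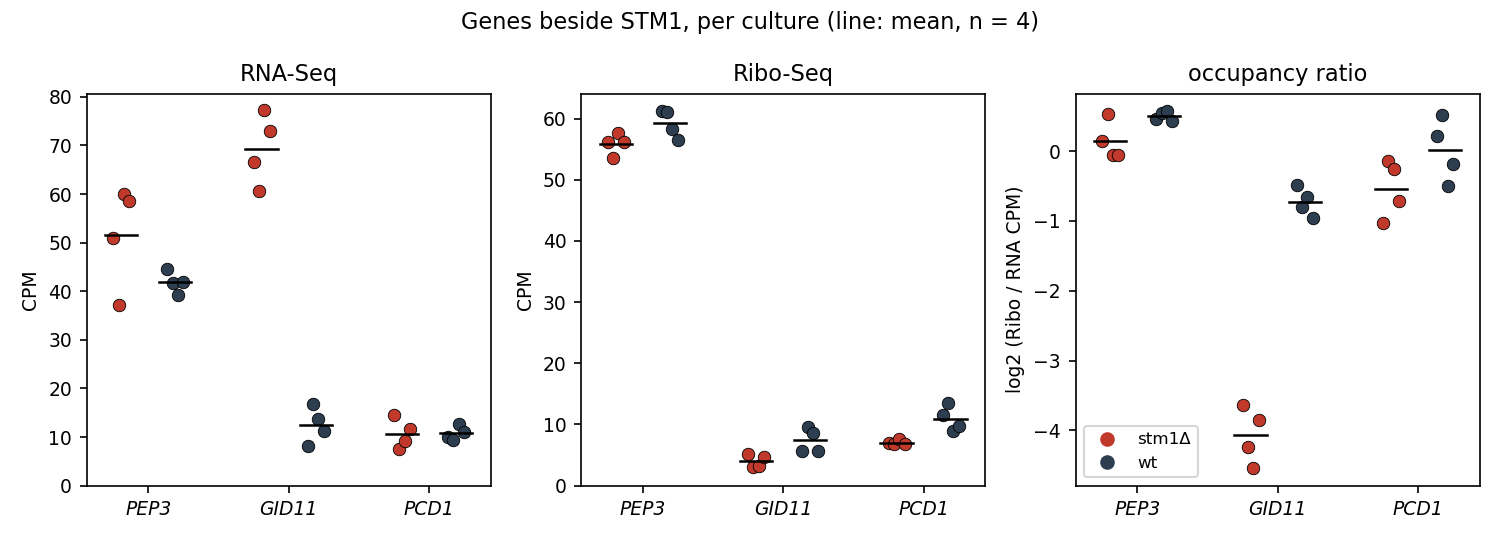
Levels of *PEP3*, *GID11* and *PCD1* in RNA-Seq and Ribo-Seq (CPM, axes from 0) and their log2 RO (right), 1 point per culture and the mean of 4 as a line. *GID11* mRNA is at 60.7 to 77.2 CPM in *stm1Δ*, against 8.15 to 16.8 CPM in *wt*, while its footprints are at or below 9.56 CPM in both.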

How the data were processed

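RNA-Seq and Ribo-Seq libraries of 4 *stm1Δ*, 4 *wt*, 4 *eif2aΔ* and 4 *tma46Δ* cultures were used, with strain, replicate and batch from the labels. The values are raw read counts per gene, deposited by the authors without normalization. By the submitters' notes the reads were trimmed with cutadapt 2.10, cleared of rRNA with Bowtie2 1.2.3 and mapped and counted with STAR 2.7.9a on R64. By the methods, duplicate Ribo-Seq reads had been removed with seqkit, which can lower the footprint counts of abundant mRNAs. Only uniquely mapped sense-strand reads are in the table, which lowers counts of near-identical paralogues.

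The analysis used edgeR 4.0.16 (R 4.3.3). The filter asked for 10 CPM in 4 or more libraries of each assay and kept 4625 of 7036 genes, of which 4616 were coding genes other than *STM1*. RO was tested by glmQLFit and glmQLFTest with TMM factors within each assay, a term for each of the 16 cultures and a strain by assay term over all 32 libraries, at a Benjamini-Hochberg FDR of 0.05. Ratios per culture used TMM-scaled CPM with 0.5 counts added. RNA-Seq and Ribo-Seq were also fitted separately with strain as the only term. Genes outside the filter had two-sided exact permutation tests over cultures. The test was checked on simulated counts. Named genes were *STM1* and the 2 genes on each side, up to 12 non-overlapping genes per direction past the FDR, list members past it and, for other lists, the member of largest change. *RPL9A*, *SER33*, *FAS2*, *YEF3*, *DHH1*, *CPR6*, *DOP1* and *CDC39* were added after their values were seen. The genes and lists were chosen with earlier results of these data known.

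The study's correction with ComBat-seq was an alternative here. Others were DESeq2 1.42.0, limma 3.58.1 on ratios, other scaling factors, filters and libraries, unstranded counts, batch or replicate terms, no culture term, and omissions of each culture. Gene symbols and sequences came from RefSeq, where 5956 of 7036 identifiers matched. Replicate pairs had a chi-square per degree of freedom of 2.46 to 26.4, so none was counted as a duplicate. *stm1Δ* replicates 3 and 4 were the closest pair in both assays, at 3.94 for RNA-Seq and 2.46 for Ribo-Seq. The other *stm1Δ* pairs had 12.6 to 26.4 and 7.45 to 12.5. All tests treated replicates 3 and 4 as separate cultures. Figures were drawn with matplotlib 3.10.9.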

Additional observations from a re-analysis of the deposited data

Results flagged for a closer look

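Among 36 groups of 4 cultures examined for a value far from the others, chance would flag about 1 in 20, and 3 were flagged by the share of the group's range that separates 1 value from the rest. The Ribo-Seq total of *stm1Δ* replicate 4, 1457024 reads, stood apart from the other *stm1Δ* libraries at 0.928 of the range. The *RET1* log2 RO of *stm1Δ* replicate 1, -1.15, stood at 0.859 of a narrow range. The *VPS13* log2 RO of *wt* replicate 2, 0.66, stood at 0.965 of the range, on the side away from *stm1Δ*.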

How the results depend on the processing

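With 2 coding genes higher and 7 lower in RO, the counts (higher and lower) were 1 and 4 with RLE or upper-quartile factors, 3 and 11 with plain CPM, 9 and 11 with DESeq2, 3 and 11 with limma on culture ratios (2 counts added likewise, 1 and 9 with *stm1Δ* and *wt* only), 5 and 10 without a filter, 4 and 11 at a mean of 50 CPM, 1 and 3 with *stm1Δ* and *wt* libraries only, and 1 and 5 with unstranded counts or *stm1Δ* of batch 7 only. They were 1 and 1 with batch 6 only, where a lone *stm1Δ* culture is assumed to vary like the other groups, or with neither culture nor batch term, 2 and 4 with batch but no culture term, 0 and 0 with batch as a term, 1386 and 997 after ComBat-seq, and 1 and 0 with the length trend removed, which was chosen after seeing the data. The ComBat-seq counts are out of 4616 coding genes and come from a fit that takes no account of the adjustment. Leaving out a culture gave 1 to 3 higher and 2 to 5 lower. List members called, 3 at first, were 5 with plain CPM and limma, 11 with DESeq2, 7 without a filter, 6 at a mean of 50 CPM, 461 after ComBat-seq, 0 with batch as a term, and 1 without culture and batch terms, in batch 6 and with the trend removed, and 1 to 3 when a culture was left out.

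The replicate block gave 2 higher and 5 lower in RO. Deviations of same-numbered cultures correlated at 0.25, 0.27, -0.05 and 0.14, and not every culture correlated best with its own number, so the numbers were not taken as pairs. In the components, the block gave 80 higher and 170 lower for mRNA and 47 higher for footprints, and batch as a term gave 0 and 2 for mRNA and 12 and 6 for footprints. Omissions gave 5 (without *stm1Δ* replicate 4) to 299 (without *stm1Δ* replicate 2) higher and 14 to 547 lower in RNA-Seq, and 25 to 144 higher and 66 to 201 lower in Ribo-Seq. The cause of these moves was not tested. The *YLR152C* difference changed sign in 4 omissions and spanned -0.43 to 0.32. *GID11* (-3.48 to -3.18) and the length slope (-0.111 to -0.0902) passed the unadjusted exact permutation test in every omission. Their groups did not overlap, so any omission leaves them apart, and passing again adds no support. The median RO change stayed positive under every setting for small subunit genes (0.0524 to 0.323), large subunit genes (0.086 to 0.305), histones (0.112 to 0.351) and stress genes (0.112 to 0.205). Depth limits *PDR12* and *SER3*, which had 5 and 14 footprint reads in *stm1Δ* replicate 4.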
